A study of Mus musculus with 7 samples.

Results

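The choroid plexus makes the cerebrospinal fluid and lies in the ventricles, outside the cerebral cortex. Transcripts of its epithelium were followed here in RNA-seq libraries of cortex. The set held 10 genes, Ttr, Enpp2, Sostdc1, Kl, Aqp1, Folr1, Kcnj13, Clic6, Slc4a5 and Otx2, taken by symbol from the 23413 symbols counted. They were chosen by name as choroid plexus genes and by their levels in these same libraries, above all the high level in 1 control library, and their diet differences were known at that point. Their values and their diet differences are therefore given as a description, with no test of the set. All 10 had enough counts to enter the fit across 15881 genes, and where a member passed its threshold, no conclusion is drawn from that.

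The libraries came from APP/PS1 mice of the B6.Cg-Tg(APPswe,PSEN1dE9)85Dbo/Mmjax line, which carry mutant human APP and presenilin transgenes and are used as a model of Alzheimer's disease. Mice were started at 6 months of age on a carbohydrate-rich control diet (CD, called SD in the sample labels) or a ketogenic diet (KD) and were sampled 7 months later, at 13 months. CD supplied 74% of its energy as carbohydrate, 16% as fat and 10% as protein, and KD supplied under 0.5% as carbohydrate, 90% as fat and 10% as protein. There were 4 CD and 3 KD libraries, each from 10 mg of frozen cortex of a single mouse. Wild-type cortex was not analysed here. Both sexes were used in the study, and the sex behind each library is not given in the sources used here.

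The choroid plexus epithelium is a single layer of cells joined by tight junctions. It moves sodium, bicarbonate, chloride and water from blood to ventricle, passes folate and other nutrients across, and secretes carrier proteins into the fluid. Transthyretin, the product of Ttr, is its best known secreted protein and carries thyroid hormone and retinol-binding protein. It has also been studied in Alzheimer's models because it binds amyloid-beta peptide. In bulk tissue, fewer cells of a type and less RNA per cell cannot be told apart, so every value below is a level in the piece of cortex and not in an epithelial cell.

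Library totals ran from 22272883 to 36614954 counts, and values are given as CPM, the count scaled by the library total. A count of 3 corresponds to 0.0819 to 0.135 CPM and was taken as the floor. Every library had the excitatory cortical neuron markers Slc17a7 (445 to 630 CPM) and Tbr1 (43.0 to 82.6 CPM), defining genes of the labelled tissue. CD replicate 4 and KD replicate 3 stood apart on the first principal component, which held 35.0% of the variance, with coordinates of 39.5 and 46.7 against -25.2 to 2.39 for the other libraries. In the same libraries, summed CPM of 14 meningeal fibroblast genes was 490 and 198, against 65.2 to 131 elsewhere. The part of these differences in the results below was not tested, and values without those libraries are given where they matter.

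Promoter windows are shown for 3 of the genes, since Otx2 encodes a homeodomain transcription factor of this epithelium. Whether it acts on the other genes was not tested. Windows ran from 250 bases before to 50 bases after an annotated start (RefSeq, GRCm38.p6) and were held for 5 of the 10 genes, namely Otx2, Aqp1, Slc4a5, Kl and Kcnj13. The letters TAATCC, a core recognised by OTX homeodomains, were searched on both strands, where the reverse strand reads GGATTA. They were in 1 of the 8 windows of these genes and in 2320 (7.06%) of 32851 windows of all genes. The match was in an Otx2 window, on the reverse strand with its first base at -211 from the start, and is in capitals below. Otx2 had more than 1 of the 8 windows, from different annotated starts, and only the window with the match is shown. It is a description of letters and not of a bound site. The window of Aqp1, which had the lowest KD level relative to CD, and that of Slc4a5, which was highest in CD replicate 1, had no match.
Otx2, chr14:48665060-48665359, minus strand: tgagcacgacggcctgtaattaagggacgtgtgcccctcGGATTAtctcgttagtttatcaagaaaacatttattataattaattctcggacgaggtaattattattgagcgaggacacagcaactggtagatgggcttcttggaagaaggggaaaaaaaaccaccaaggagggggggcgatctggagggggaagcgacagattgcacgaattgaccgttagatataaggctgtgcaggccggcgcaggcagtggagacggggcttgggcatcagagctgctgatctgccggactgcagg
Aqp1, chr6:55336049-55336348, plus strand: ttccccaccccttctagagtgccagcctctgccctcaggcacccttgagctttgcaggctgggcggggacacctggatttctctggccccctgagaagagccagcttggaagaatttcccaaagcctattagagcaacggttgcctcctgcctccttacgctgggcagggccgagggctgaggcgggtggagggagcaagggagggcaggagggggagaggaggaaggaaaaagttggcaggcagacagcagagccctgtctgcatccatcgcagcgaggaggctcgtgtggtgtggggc
Slc4a5, chr6:83237125-83237424, plus strand: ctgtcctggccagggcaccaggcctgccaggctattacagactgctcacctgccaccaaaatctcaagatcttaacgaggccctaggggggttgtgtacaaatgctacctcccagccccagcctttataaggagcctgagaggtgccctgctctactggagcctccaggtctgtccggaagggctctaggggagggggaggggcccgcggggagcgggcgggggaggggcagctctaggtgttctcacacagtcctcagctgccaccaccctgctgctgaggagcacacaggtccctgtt

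Of the 10 genes, Ttr varied most, by 74.8 times between its lowest and highest library. It lies on chromosome 18 (mm10, 20665280 to 20674321, plus strand). CD replicates 1 to 4 had 425, 5.68, 22.7 and 45.4 CPM, and KD replicates 1 to 3 had 18.0, 41.2 and 15.3 CPM. CD replicate 1 alone stood high, 20.9 times the median of the other 6 libraries and 9.37 times the next library, and the other CD values spanned the whole KD range. In raw counts this was 14928 in CD replicate 1 and 170 to 1663 in the other libraries, so the contrast did not rest on a few reads. The mean was 125 ± 201 CPM in CD (SD, n = 4) and 24.8 ± 14.3 CPM in KD (SD, n = 3). Without CD replicate 1, the CD mean was 24.6 ± 19.9 CPM (SD, n = 3), close to that of KD.

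Sostdc1 encodes a secreted antagonist of BMP and Wnt signalling and lies on chromosome 12 (mm10, 36314139 to 36318452, plus strand). Its CD levels were 3.36, 0.669, 0.427 and 1.01 CPM and its KD levels 0.684, 0.588 and 1.71 CPM. CD replicate 1 was again the highest, at 4.97 times the median of the other libraries, but KD replicate 3 came next. Kl encodes klotho, a co-receptor for FGF23 that is also shed into the cerebrospinal fluid, and lies on chromosome 5 (mm10, 150952607 to 150993817, plus strand). CD libraries had 11.9, 1.81, 4.85 and 12.6 CPM of Kl, and KD libraries had 2.91, 3.76 and 8.40 CPM. For Kl the top library was CD replicate 4, just above CD replicate 1, and the KD range lay inside the CD range.

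Enpp2 encodes autotaxin, the secreted enzyme that makes lysophosphatidic acid, and is also expressed by oligodendrocytes. It lies on chromosome 15 (mm10, 54838901 to 54952892, minus strand). CD libraries had 539, 362, 331 and 325 CPM, and KD libraries had 442, 402 and 165 CPM. The spread was narrow beside that of the other genes, with CD replicate 1 at 1.55 times the median of the others and KD replicate 3 alone at the low end. Summed CPM of 12 oligodendrocyte genes was 4474, 3924, 1173 and 3907 in CD and 4394, 2252 and 1217 in KD, so KD replicate 3 was low in both. On log2 CPM over the 7 libraries, Enpp2 had a Pearson r of 0.71 (Spearman rho 0.75) with the mean of the oligodendrocyte genes and of 0.49 (rho 0.36) with Ttr. Without the 2 libraries with oligodendrocyte means farthest from the median the first r was 0.17. Without the 2 libraries farthest from the median in Ttr, the r with Ttr was 0.45, so the order of the 2 relations did not hold. Enpp2 shares 345 exonic bases with the antisense transcript Gm26684.

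**Figure D1:**
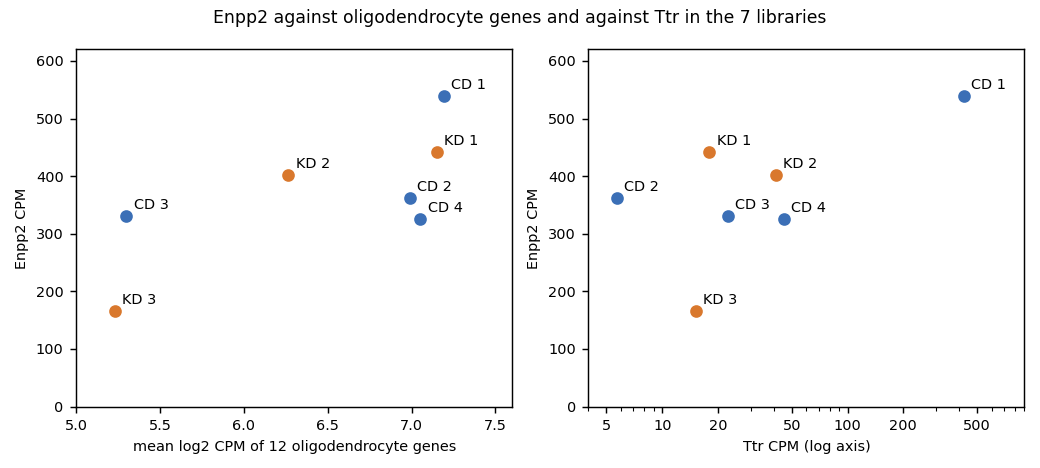
Enpp2 CPM (vertical axis) against the mean log2 CPM of the 12 oligodendrocyte genes on the left and against Ttr CPM on a log axis on the right, 1 point per library, CD in blue and KD in orange. CD replicate 1 had the most Enpp2 (539 CPM) and KD replicate 3 the least (165 CPM), and the libraries between them were ordered neither by the oligodendrocyte genes nor by Ttr.

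Aqp1 encodes the water channel of the apical membrane, through which much of the fluid's water passes. It lies on chromosome 6 (mm10, 55336432 to 55348555, plus strand). In CD it measured 3.08, 0.401, 1.46 and 4.15 CPM, and in KD 0.385, 0.470 and 0.0898 CPM. CD replicates 1, 3 and 4 were above all KD libraries, while CD replicate 2 lay within the KD range. The KD values stood on few reads, 9, 16 and 2 counts, and KD replicate 3 was under the floor. Means were 2.27 ± 1.67 CPM in CD (SD, n = 4) and 0.315 ± 0.200 CPM in KD (SD, n = 3).

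Folr1 encodes the folate receptor that carries folate across the epithelium and lies on chromosome 7 (mm10, 101858331 to 101870788, minus strand). Levels were 2.88, 0.0669, 0.519 and 0.655 CPM in CD and 0.513, 0.529 and 0.494 CPM in KD. Apart from CD replicate 1 on the high side and CD replicate 2, at 2 counts, on the low side, the libraries lay within 0.494 to 0.655 CPM. Slc4a5 encodes the electrogenic sodium bicarbonate cotransporter NBCe2 of the apical membrane and lies on chromosome 6 (mm10, 83219828 to 83304945, plus strand). Its levels were 2.68, 0.134, 0.336 and 0.410 CPM in CD and 0.470, 0.235 and 0.224 CPM in KD. CD replicate 1 was 9.39 times the median of the others, with 94 counts against 4 to 15, and the remaining CD libraries overlapped KD.

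Clic6, an intracellular chloride channel gene on chromosome 16 (mm10, 92485736 to 92541243, plus strand), had 7.50, 0.970, 1.80 and 4.97 CPM in CD and 1.33, 1.26 and 4.98 CPM in KD. Here 3 libraries were high, CD replicates 1 and 4 and KD replicate 3, and the diets overlapped. Kcnj13 encodes the inward rectifier potassium channel Kir7.1 and lies on chromosome 1 (mm10, 87386363 to 87394729, minus strand). Its CD levels were 4.67, 2.07, 3.08 and 7.07 CPM and its KD levels 3.04, 1.38 and 4.71 CPM. Kcnj13 lies within Gigyf2 on the opposite strand and shares 623 exonic bases with it. Gigyf2 had 2400 to 4295 counts per library, and since the strand setting of the counting is not given in the sources used here, some Kcnj13 reads may belong to it. Kcnj13 was the member with the smallest excess in CD replicate 1, at 1.53 times the median of the others.

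Otx2 encodes the homeodomain factor needed for the choroid plexus to form and to be maintained. It lies on chromosome 14 (mm10, 48657677 to 48673819, minus strand). Levels were 2.22, 0.0334, 0.183 and 1.17 CPM in CD and 0.257, 0.529 and 0.135 CPM in KD. Counts were low, 78 and 43 in CD replicates 1 and 4 and 1 to 18 in the other libraries, and CD replicate 2 and KD replicate 3 were at or under the floor. The diets overlapped, and CD held both the highest and the lowest library.

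**Figure D2:**
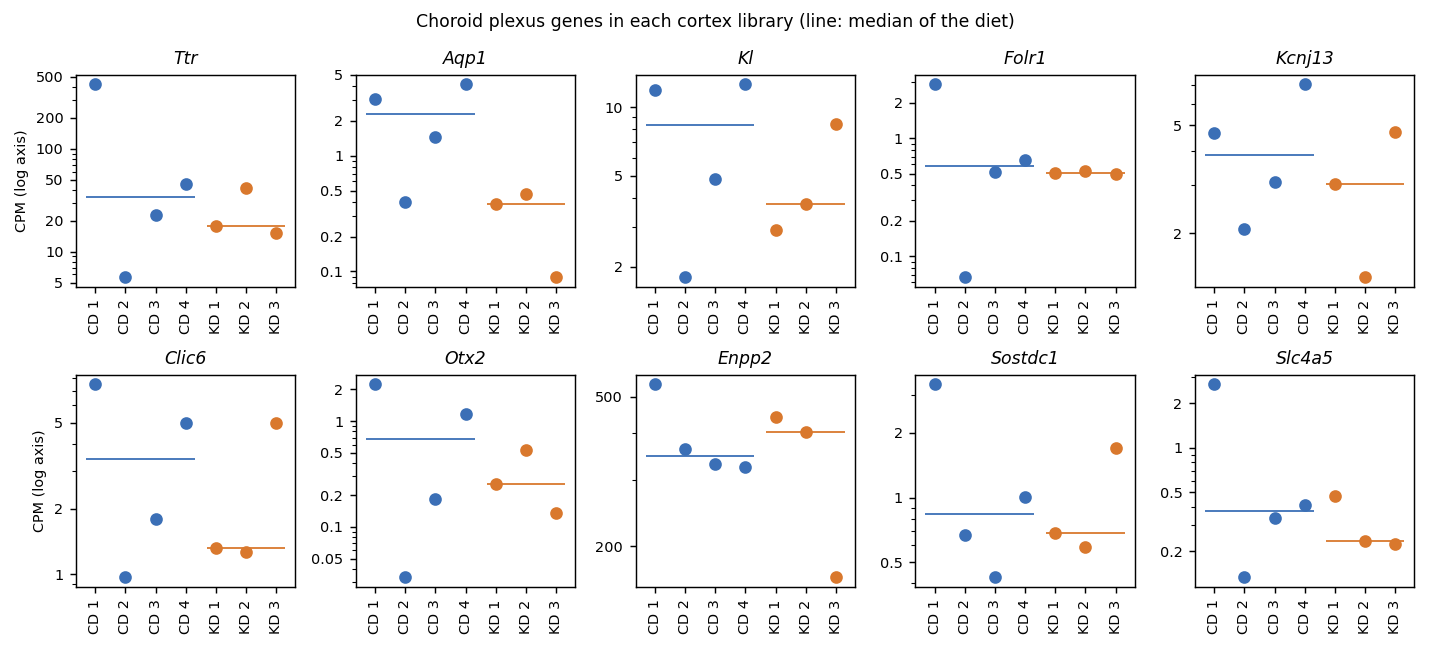
CPM of each gene on a log axis in the 7 libraries, CD in blue and KD in orange, with a line at the median of each diet. CD replicate 1 was the highest library in 7 panels and CD replicate 4 in the other 3 (Aqp1, Kl and Kcnj13), and CD replicate 2 was the lowest in 6 panels.

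Divided by the exon length of the gene, the CD order of mean levels was Ttr (105 CPM per kb), Enpp2 (67.3), Kcnj13 (3.33), Clic6 (0.973), Aqp1 (0.866), Kl (0.834), Sostdc1 (0.768), Folr1 (0.448), Otx2 (0.214) and Slc4a5 (0.153), all in CPM per kb. The ranges of the CD libraries overlapped between every pair of neighbours in this order apart from Enpp2 and Kcnj13. Ttr led the CD means through CD replicate 1 alone (359 CPM per kb). In CD replicates 2, 3 and 4 it had 4.79, 19.1 and 38.3 CPM per kb, below Enpp2 at 62.7, 57.3 and 56.2. The order of these 2 genes there was thus that of every KD library. In KD the order on the same scale was led by Enpp2 (58.2 CPM per kb) and Ttr (20.9 CPM per kb), followed by Kcnj13 (2.40 CPM per kb), and Aqp1 stood below Folr1 (0.120 against 0.223 CPM per kb) in every library. No member other than Ttr and Enpp2 exceeded 5.57 CPM per kb in any library, the level of Kcnj13 in CD replicate 4.

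Co-variation across libraries was described with Enpp2 set apart from the other members. On log2 CPM, all 36 pairs of the other 9 genes had a positive Pearson r over the 7 libraries, from 0.18 to 0.95 with a median of 0.67, whereas 5 of the 9 pairs with Enpp2 were positive (-0.30 to 0.55). Among all tested genes, 8149 of 15880 had a positive r with Ttr. The members were chosen above all by their level in CD replicate 1, which by itself makes positive r between them likely. These values also share the 7 libraries and their scaling, so they are a description only and nothing is read from the count of positive pairs. The genes nearest to Ttr were Folr1 (r = 0.95, rho = 1.0), Otx2 (r = 0.93, rho = 0.96) and Slc4a5 (r = 0.91, rho = 0.75). When the 2 libraries farthest from the median of Ttr, CD replicates 1 and 2, were left out, r over the other 5 was 0.82 for Folr1, 0.91 for Otx2 and 0.03 for Slc4a5. Aqp1 had r = 0.65 with Ttr over 7 libraries and 0.69 over 5, and Kl had 0.71 and 0.23. The r went from 0.68 to -0.06 for Clic6, from 0.67 to -0.31 for Sostdc1 and from 0.34 to -0.15 for Kcnj13. For these 3 genes, Slc4a5 and Kl, the relation to Ttr thus rested on the 2 libraries at the ends.

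The high libraries were not high in the same proportions. Each library's Ttr count divided by the summed count of the 8 genes other than Ttr and Enpp2 was 11.1 in CD replicate 1 and 4.70 in KD replicate 2. In CD replicates 2, 3 and 4 this ratio was 0.924, 1.79 and 1.42, and in KD replicates 1 and 3 it was 1.88 and 0.736. Those 8 genes summed to 38.2, 6.15, 12.7 and 32.0 CPM in CD and to 9.58, 8.76 and 20.7 CPM in KD. CD replicate 4 thus came close to CD replicate 1 in the sum of the 8 genes but had 45.4 CPM of Ttr against 425. The sum hid differences between the genes. Kl, Kcnj13 and Aqp1 were higher in CD replicate 4 than in CD replicate 1. Folr1 (0.655 against 2.88 CPM), Slc4a5 (0.410 against 2.68), Sostdc1 (1.01 against 3.36), Otx2 (1.17 against 2.22) and Clic6 (4.97 against 7.50) were lower. With the mean of the meningeal fibroblast genes, Kcnj13 had r = 0.77 (rho 0.79), Kl 0.64 (rho 0.64), Clic6 0.51 (rho 0.57) and Aqp1 0.39 (rho 0.14) over 7 libraries. Without the 2 libraries farthest from the median in those genes these r were 0.43, 0.25, 0.13 and 0.44. Enpp2 had a negative r of -0.50 (rho -0.68), and that of Ttr was 0.013. The fibroblast collagen gene Col1a2 was 51.9 CPM in CD replicate 4 and 7.49 to 17.9 CPM in the other libraries.

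**Figure D3:**
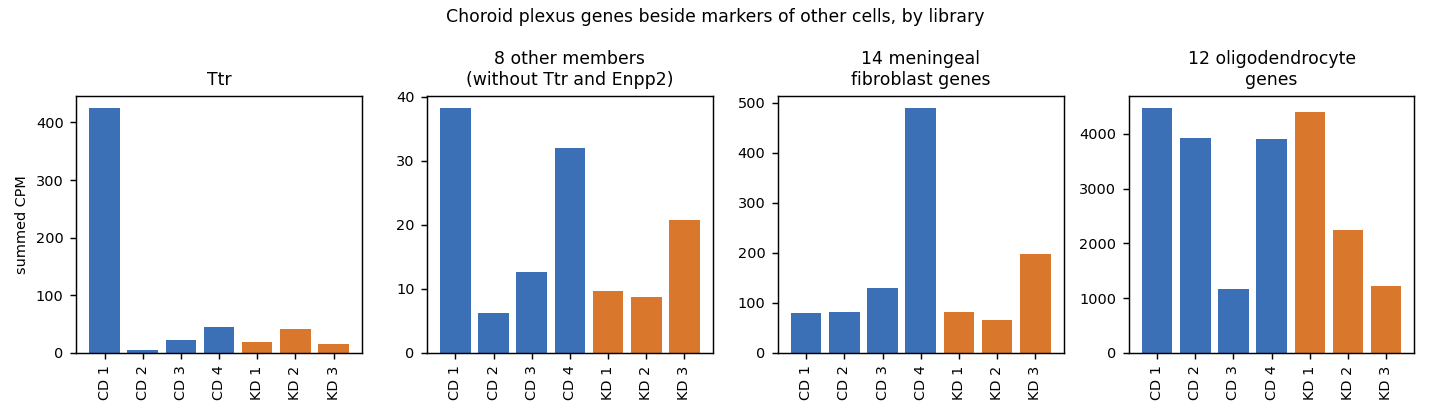
Summed CPM per library of Ttr, of the 8 other members without Enpp2, of 14 meningeal fibroblast genes and of 12 oligodendrocyte genes, CD in blue and KD in orange, each panel from 0. Ttr was high in CD replicate 1 alone (425 CPM), the 8 genes in CD replicates 1 and 4 (38.2 and 32.0 CPM), and the fibroblast genes in CD replicate 4 (490 CPM).

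Ependymal cells line the ventricles beside the choroid plexus. The 11 ependymal genes counted summed to 15.6, 12.2, 7.87 and 25.0 CPM in CD and to 15.5, 8.46 and 19.8 CPM in KD, with CD replicate 1 inside the range of the others. Foxj1, the factor of motile cilia, was 4.02 CPM in CD replicate 1 and 1.13 to 4.29 CPM in the other libraries. The ependymal marker Tmem212 was 0 in CD replicate 3 and 0.0588 to 3.25 CPM elsewhere. On log2 CPM over 7 libraries, r of the members with the mean of the tested ependymal genes ran from -0.12 (Enpp2) to 0.73 (Kcnj13, rho 0.57). Without the 2 libraries farthest from the median in those genes, r of Kcnj13 was 0.86. Among markers of red blood cells Hba-a1 and Hba-a2 were listed at 0 in every library, while Alas2 had 6.15 to 10.5 CPM. The part of these cells in the levels above was not tested.

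Other genes known from the choroid plexus were then examined from a list of 46 symbols, of which 44 were counted and 36 passed the filter on low counts. Of those 36, 8 were highest in CD replicate 1 and 18 in CD replicate 4, and their median ratio of CD replicate 1 to the other libraries was 1.28, against 5.28 for the 10 members. Because the members were chosen above all by their level in CD replicate 1, nothing is read from that gap. The list also held genes at high levels in all libraries, such as Atp2b3 (126 to 154 CPM). Among these tested genes, the 5 with the widest range were Cldn1, Cldn2, Krt18, Prlr and Wfikkn2. Claudin-2, encoded by Cldn2, forms the cation- and water-permeable tight junctions of the epithelium. Its levels were 2.11, 0.100, 0.366 and 1.09 CPM in CD and 0.385, 0.118 and 0.988 CPM in KD (3 to 74 counts). Krt18, an epithelial keratin, had 1.03, 0.100, 0.0305 and 0.847 CPM in CD and 0.171, 0.235 and 0.629 CPM in KD (1 to 36 counts). The prolactin receptor gene Prlr had 8.83, 1.67, 1.04 and 9.78 CPM in CD and 2.14, 1.18 and 10.1 CPM in KD, with KD replicate 3 the highest. These 3 followed the pattern of Clic6, high in CD replicates 1 and 4 and, of the KD libraries, in replicate 3.

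Cldn1, of another claudin, had 670 counts in CD replicate 4 and 34 to 84 in the other libraries, and Wfikkn2, a secreted binder of TGF-beta family ligands, had 288 against 18 to 55. Neither stood out in CD replicate 1, which had 84 and 55 counts. Of the genes of the list with too few counts for the fit, 3 were picked after their values were seen because, like Ttr, they were highest in CD replicate 1. Kcne2, the beta subunit of a potassium channel of the epithelium, had 94 counts in CD replicate 1 and 3 to 9 in the other libraries. Tmem72 had 78 counts against 1 to 16, and Krt8, the keratin partner of Krt18, had 21 against 1 to 3. Most or all of the other libraries were at or near the floor for Tmem72 and Krt8, so no ratio is given for them. In CPM, Kcne2 in CD replicate 1 was 11.1 times the median of the others. The remaining list genes under the filter did not all share this pattern. Lmx1a, not among the 3 picked, was also highest in CD replicate 1, with 10 counts against 0 to 7 elsewhere. Cldn3 had 0 counts in CD replicate 1 and 4 in CD replicates 2 and 3, and Pon1 had 1 against 4 in CD replicate 2. Msx1 had at most 1 count and Mfrp 0 in every library.

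**Figure D4:**
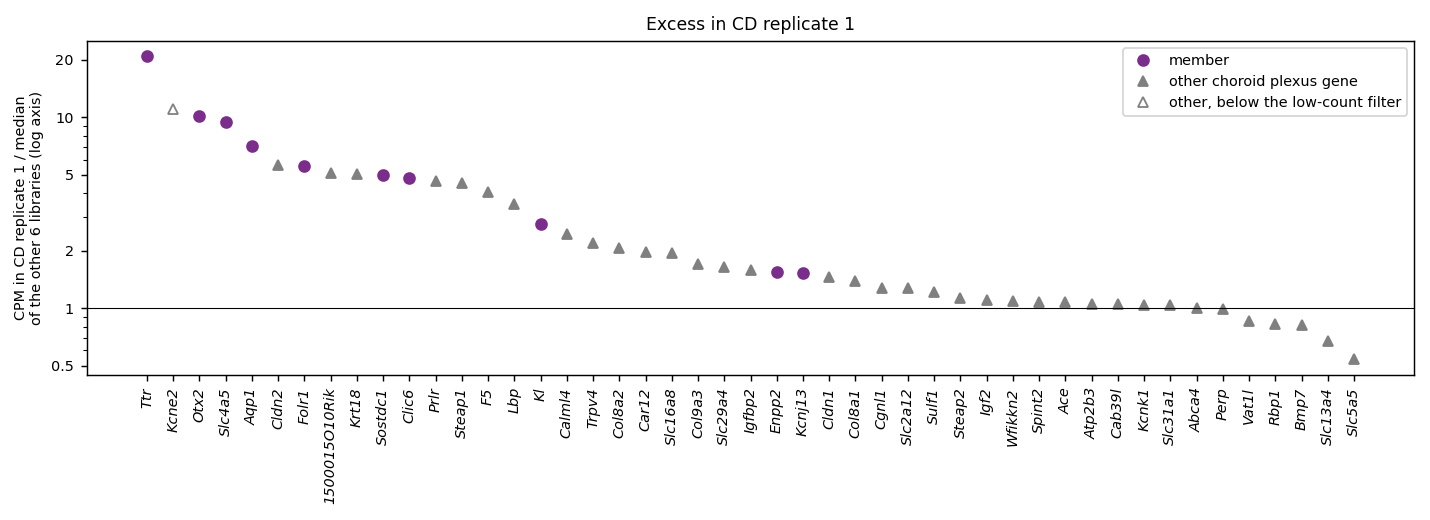
Ratio of CPM in CD replicate 1 to the median of the other 6 libraries, on a log axis, for each member (circles) and each other choroid plexus gene (triangles, open where the gene was below the filter on low counts), in descending order, without genes at or under 3 counts in 3 or more libraries. Ttr (20.9) leads, followed by Kcne2 (11.1), 8 members lie above 2, and Enpp2 (1.55) and Kcnj13 (1.53) lie among the genes of the list with little or no excess.

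Of the tested genes outside the set, the 10 whose log2 CPM was most like the mean of the members over the 7 libraries were Pnp (r = 0.96), 1500015O10Rik (0.96), Ttpa (0.96), Kifc3 (0.96), Pmvk (0.95), Ankrd34a (0.95), Ccl9 (0.94), Nat1 (0.94), Fam181b (0.94) and Pofut2 (0.94). An r of at least 0.9 was found for 23 of 15871 genes (0.145%) and for 1 of the 36 other choroid plexus genes. That gene was 1500015O10Rik, which encodes the secreted peptide augurin and had 5.27, 0.803, 1.22 and 2.92 CPM in CD and 1.07, 0.823 and 0.988 CPM in KD. The 9 others spanned narrow ranges, such as 9.10 to 13.5 CPM for Pnp and 32.9 to 41.6 CPM for Pmvk.

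KD vs. CD was compared by edgeR's quasi-likelihood test over all 15881 genes, to ask which cortical transcripts differed between the diets. All 10 members had a log2 fold change below 0, with a median of -0.81 against -0.0033 over all genes, where 51.0% of genes were below 0. The values with their standard errors were -2.77 ± 0.82 for Aqp1, -2.31 ± 1.45 for Ttr, -1.52 ± 1.0 for Slc4a5, -1.48 ± 1.10 for Otx2 and -0.997 ± 0.93 for Folr1. For Kl they were -0.62 ± 0.63, for Clic6 -0.60 ± 0.74, for Sostdc1 -0.48 ± 0.74, for Kcnj13 -0.47 ± 0.49 and for Enpp2 -0.20 ± 0.33 (7 libraries in each case). No member had all KD libraries below all CD libraries, which held for 2.07% of genes, or above them, which held for 2.05%.

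At a raw p of at most 0.01 in edgeR, the threshold of the study, 0.321% of all genes were called in either direction, 0.17% as lower and 0.151% as higher in KD. Of the members 1, Aqp1, was among them, and since the members were chosen with these differences known, nothing is read from that count. No gene of the 15881 had an adjusted p under 0.05 in edgeR or in DESeq2, while 506 genes (3.19%) had a raw p under 0.05 in edgeR. In DESeq2, 0.756% of genes and of the members again Aqp1 alone passed the raw threshold. With each library left out in turn, Aqp1 passed it in 1 of the 7 edgeR fits, the one without CD replicate 2, where 0.196% of genes were called. The log2 fold change of Aqp1 was between -3.21 and -2.33 in those fits.

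For 5 of the other members the direction depended on CD replicate 1. Without it, 9 of the 10 genes were tested, 4 were below 0, and the median was 0.0047. The log2 fold change became 0.052 for Ttr, 0.072 for Slc4a5, 0.31 for Folr1, 0.49 for Sostdc1 and 0.0047 for Enpp2. It stayed below 0 for Aqp1 (-2.58), Kcnj13 (-0.41), Kl (-0.34) and Clic6 (-0.030), and Otx2 then fell under the filter on low counts.

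**Figure D5:**
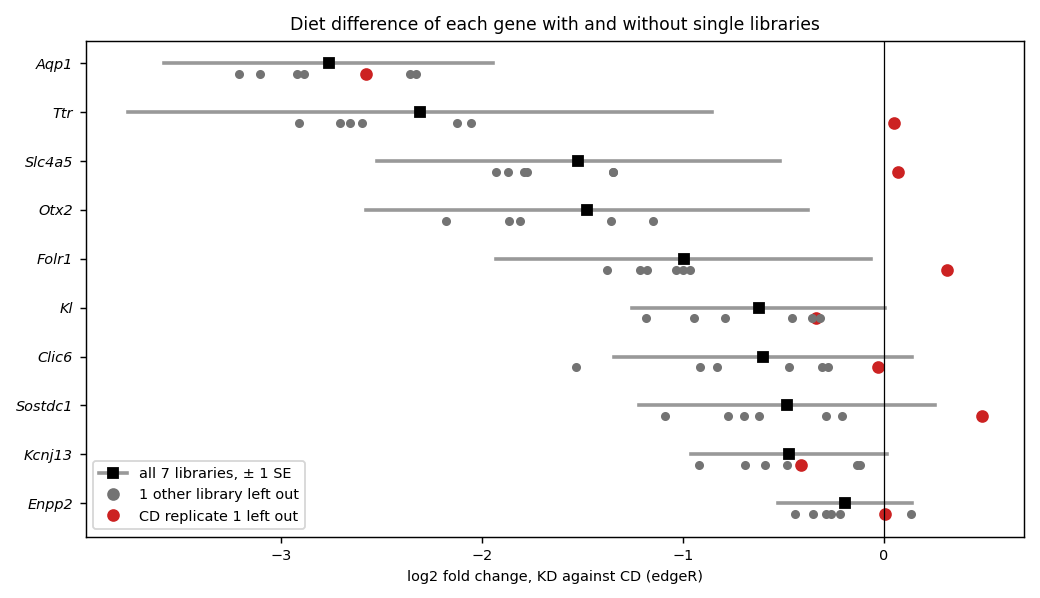
Log2 fold change of KD against CD from edgeR for each gene, with all 7 libraries (black squares, bars for 1 standard error on each side), with CD replicate 1 left out (red) and with each other library left out (grey). Without CD replicate 1 the values of Ttr, Slc4a5, Folr1 and Sostdc1 move above 0 and Enpp2 to 0.0047, while Aqp1 stays between -3.21 and -2.33 with any 1 library left out.

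Among the 36 tested genes of the other choroid plexus list, none had a raw p of at most 0.01 or under 0.05 in edgeR, and none a raw p of at most 0.01 in DESeq2. Of these, 28 were below 0 and 8 above, with a median log2 fold change of -0.40. The median was -0.060 without CD replicate 4, in which 18 of the genes were highest, -0.24 without CD replicate 1, -0.25 without KD replicate 2 and -0.65 without KD replicate 3. By role, the median was -0.10 for 13 channels and transporters, -0.49 for 12 secreted, matrix and surface proteins and -0.45 for 11 genes of junctions, cytoskeleton, receptors and transcription factors. Of the meningeal fibroblast genes, 14 of 14 were below 0, with a median of -0.81. All 14 were highest in CD replicate 4, and without that library their median was 0.14. The 12 oligodendrocyte genes were likewise all below 0 (median -0.40), and no gene of either list had a raw p of at most 0.01. Of the 10 ependymal genes tested, 6 were below 0, with a median of -0.091.

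A list of 32 genes whose products work with those of the members covered thyroid hormone and retinol handling, folate carriers, klotho co-receptors, receptors for lysophosphatidic acid, BMP and Wnt partners, and ion and bicarbonate transport. Of these, 31 were tested and none had a raw p of at most 0.01 in edgeR, or in DESeq2, while 1 (Atp1b1, a subunit of the sodium pump) had a raw p under 0.05 in edgeR. The list was split evenly, with 16 genes below 0 and 15 above and a median of -0.044. Among the tested genes, the 5 with the widest range were Dio3, Otx1, Folr2, Lpar2 and Bmp4. Dio3, the deiodinase that inactivates thyroid hormone, had 0.0570, 0.736, 0.671 and 0.273 CPM in CD and 0.0855, 0.0882 and 2.60 CPM in KD (2 to 58 counts). Otx1, a paralogue of Otx2 expressed in cortical neurons, had 1.82, 1.30, 0.671 and 0.410 CPM in CD and 1.97, 1.85 and 0.224 CPM in KD (5 to 64 counts). For Folr2, a second folate receptor gene, levels were 0.513, 1.27, 0.946 and 1.34 CPM in CD and 0.214, 1.29 and 1.12 CPM in KD (5 to 49 counts). Lpar2, a receptor for the product of autotaxin, had 0.484, 0.702, 0.427 and 1.42 CPM in CD and 0.470, 0.323 and 2.83 CPM in KD (11 to 63 counts). Bmp4, a ligand of the pathway that Sostdc1 inhibits, had 1.34, 1.47, 1.83 and 4.42 CPM in CD and 1.63, 0.940 and 1.35 CPM in KD (30 to 162 counts).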

How the data were processed

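RNA-seq was performed on cortex of 7 APP/PS1 mice, 4 fed CD and 3 fed KD, as stranded total RNA libraries read in 50-bp paired-end mode. Per the study's methods the authors aligned reads to mm10 with STAR and counted them per gene with HTSeq, and they deposited raw counts for each gene symbol and mouse, with no normalization or pooling. Software versions, the annotation and the strand setting of the counting are not given in the sources used here. Groups were taken from the sample labels.

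Counts were scaled to CPM by library total. For KD vs. CD, edgeR 4.0.16 in R 4.3.3 was run with filterByExpr, TMM, estimateDisp, glmQLFit (robust) and glmQLFTest, with no covariate and Benjamini-Hochberg adjustment over 15881 genes. DESeq2 1.42.0 was the alternative test. Co-variation used edgeR log2 CPM with TMM scaling and a prior count of 2. Replicates of a diet differed by far more than sampling noise (chi-square per gene of 16.1 to 68.3), so none was a repeat of another library. Positions and exon lengths came from GENCODE M21 (mm10). The scripts were tested on simulated counts.

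The members and all gene lists were chosen with earlier results of these data known. Lists covered other choroid plexus genes, partner genes, ependyma, meninges, oligodendrocytes, endothelium and mural cells, red blood cells, hippocampus, thalamus and habenula, striatum, olfactory bulb and cortex. Genes named were all 10 members, in the other choroid plexus and partner lists any gene called at the raw threshold of 0.01 and the 5 tested genes with the widest range of log2 CPM, the 10 genes outside the set most correlated with the members' mean, and defining markers. Kcne2, Tmem72, Krt8 and Atp1b1 were named after their values were seen, as were Lmx1a, Cldn3, Pon1, Msx1 and Mfrp, the remaining choroid plexus list genes under the filter. Other alternatives were RLE size factors, library totals alone, no filter beyond 1 count, a replicate block, leaving out each library, and leaving out CD replicate 4 with KD replicate 3. Leaving out CD replicate 1 with KD replicate 3 was added after seeing the data.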

Additional observations from a re-analysis of the deposited data

Results flagged for a closer look

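Of 22 values examined in the 4 CD libraries (each member and the mean log2 CPM of each list), 3 had 1 library farther from its nearest neighbour than the 95% limit of Dixon's test allows, where chance flags about 1 in 20. None was a member or the members' mean, which were also taken as log2 CPM. The CPM values of the members were not put to this test. The mean log2 CPM of the oligodendrocyte genes was 5.30 in CD replicate 3 and 6.99 to 7.19 in the other CD libraries. For the thalamus and habenula genes it was 3.23 in CD replicate 4 and 2.53 to 2.64 in the others. For the cortex genes it was 5.59 in CD replicate 4 and 5.99 to 6.05 in the others. The 3 KD libraries were too few for this comparison.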

How the results depend on the processing

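Of 137 member fold changes recomputed under the alternatives, 126 had the sign of the full fit. RLE size factors, library totals, the lower count filter and DESeq2 changed no sign of a member. The count of all genes at a raw p of at most 0.01 (51) was 120 with DESeq2, 182 with the replicate block, 27 without CD replicate 1 and KD replicate 3, and 19 to 211 with each library left out. The adjusted count stayed at 0 in every fit. Members below 0 (10) numbered 6 without CD replicate 1 and KD replicate 3 and 4 to 10 with each library left out, where the median log2 fold change was -1.17 to 0.0047, the last without CD replicate 1. Without CD replicate 1 and KD replicate 3, Ttr was 0.31, Folr1 0.35, Slc4a5 0.25 and Enpp2 0.34. Enpp2 was 0.049 without CD replicate 4 and KD replicate 3.

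Ranges with each library left out were -2.91 to 0.052 for Ttr, -1.38 to 0.31 for Folr1, -0.44 to 0.14 for Enpp2 (highest without KD replicate 3), -1.09 to 0.49 for Sostdc1 and -1.93 to 0.072 for Slc4a5. The same ranges of the list medians were -0.65 to -0.060 for the other choroid plexus genes and -2.0 to -0.10 for olfactory bulb (both nearest 0 without CD replicate 4), -0.087 to -0.0078 for partner genes, -0.96 to -0.028 for oligodendrocytes, -0.43 to 0.13 for ependyma, -1.41 to 0.14 for meninges, -0.35 to 0.029 for endothelium and mural cells, -0.23 to 0.29 for hippocampus, -0.26 to 0.15 for thalamus and habenula, -0.011 to 0.52 for striatum and -0.49 to 0.0047 for cortex. Without CD replicate 4 and KD replicate 3, medians were 0.030 for partner genes, 0.12 for ependyma, 0.073 for oligodendrocytes, 0.019 for endothelium and mural cells, 0.11 for thalamus and habenula and -0.050 for striatum, and the median r of the other 9 members with Ttr was 0.92 against 0.68. Without CD replicate 1 and KD replicate 3 they were 0.14 for oligodendrocytes and 0.019 for cortex. The cause of these changes was not tested.

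No source ties the replicate numbers to shared animals or days, and same-numbered libraries correlated in their deviations at 0.25, 0.19 and 0.098. The last was under the limit of 0.1, so the numbers were not used as pairs, which does not show that pairing is absent. With the number as a replicate block (CD replicate 4 left out), 9 members were tested, all below 0 with a median of -0.35, Aqp1 had a log2 fold change of -2.08, no member passed the raw threshold, and the median of the other choroid plexus genes was -0.075. Block medians were 0.21 for ependyma, 0.093 for meninges, 0.033 for endothelium and mural cells, 0.11 for hippocampus and 0.14 for thalamus and habenula. Otx2, with 1 to 78 counts, was not tested in the block or without CD replicate 1 or 4, and low counts limit the precision of Otx2, Slc4a5, Folr1 and Aqp1.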

Other observations

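Markers of neighbouring brain regions and of vessels varied between the pieces of cortex as well. Summed CPM of 6 olfactory bulb genes was 7.50, 6.65, 11.1 and 77.0 in CD and 5.65, 6.32 and 19.9 in KD, with CD replicate 4 the highest, as for the meningeal genes. The 11 thalamus and habenula genes summed to 252 CPM in CD replicate 4 and 151 CPM in KD replicate 3, against 79.9 to 104 CPM in the other libraries. For 7 striatal genes the sum was 296 CPM in KD replicate 3 and 119 to 176 CPM in the CD libraries. The 8 cortical genes summed to 836 and 811 CPM in CD replicate 4 and KD replicate 3 and to 1021 to 1184 CPM elsewhere. CD replicate 1, the library with the most Ttr, was at neither end of any of these sums.

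In KD vs. CD, no gene of these lists had a raw p of at most 0.01 in edgeR. Median log2 fold changes were -1.53 over 5 olfactory bulb genes (-0.10 without CD replicate 4), -0.20 over 9 thalamus and habenula genes, 0.36 over 7 striatal genes, -0.34 over 8 cortical genes, -0.09 over 8 hippocampal genes and -0.31 over 9 endothelial and mural genes. Alas2, the single red blood cell gene tested, had -0.12.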
